A study of Zea mays with 10 samples.

Results

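Opaque-2 (O2) is a transcription factor of the maize endosperm, the starchy storage tissue of the kernel. The peaks described here are the short sites of O2 chromatin immunoprecipitation (ChIP) that lie close to another site. Members were the peaks of the deposited list under 250 bp long whose summit, the base of highest signal, lay within 10000 bp of the summit of any other peak on the same chromosome. The list held 6365 peaks, of which 5011 were under 250 bp and are called short here. Of these, 734 were clustered by this rule and 4277 were isolated. The other 1354 peaks, 250 bp or longer, are called broad, and 18.4% of them also lay within 10000 bp of another summit. Since length and spacing chose the members, their lengths and spacings are descriptions and not findings.

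O2 belongs to the bZIP family, whose proteins bind DNA as dimers through a basic region next to a leucine zipper. Its known targets for activation include alpha zein genes, many of which lie in tandem arrays. ChIP recovers the DNA bound by a protein, so that sites of binding appear as local heaps of sequenced fragments. A peak caller sets the height of each heap, the pileup, against a level from control chromatin at or around the same place.

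The WT was the inbred line B73, and the mutant, labelled B73o2, carried an opaque-2 mutation in the B73 background; which allele it was is not stated in the sources read. Both were grown in a greenhouse and self-pollinated, and endosperm was taken at 15 days after pollination. ChIP with an antibody against O2 gave 2 WT and 2 o2 libraries, and polyadenylated RNA gave 3 libraries of each genotype. The labels do not say whether replicates came from separate plants or ears. The authors deposited 1 peak list for the series, with coordinates on B73 RefGen_v3 and no value per library. It therefore has no replicate error, and since peaks of 1 list share their libraries and are not replicates of a condition, no test was run over peaks. Differences between classes of peaks below are differences within this list.

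The ChIP libraries held 8462481 to 14444794 uniquely mapped reads. Multiply mapped reads were 42.1% and 38.3% of all reads of the WT replicates, against 38.6% and 35.4% for o2. Unmapped reads were 20.2% and 24.1% (WT replicates) and 25.5% and 31.6% (o2 replicates). These unmapped shares did not overlap between the genotypes, and no test was run on 2 libraries against 2. The o2 gene (GRMZM2G015534), read as a check of the RNA labels, ranged from 86.1 to 163 RPKM in the WT libraries and from 0.173 to 0.254 RPKM in the o2 libraries. The storage protein gene gz27 (GRMZM2G138727), a gamma zein of the endosperm, had at least 3351 RPKM in every RNA library. The endosperm transcription factor gene pbf1 (GRMZM2G146283) had 16.4 to 19.96 RPKM in WT and 23.5 to 44.2 RPKM in o2, so that all 3 endosperm genes were present in the WT libraries.

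Adjacent peaks lay within 10000 bp of each other more often than at any other distance of that width up to 100000 bp. Of 6355 distances between adjacent summits, 514 were at most 10000 bp, followed by 244 from there to 20000 bp, 202 to 30000 bp and 172 to 40000 bp. From 50000 to 100000 bp the number per 10000 bp was level, between 147 and 156. The first 10000 bp thus held 3.36 times, and the next 10000 bp 1.59 times, the median of these outer bins. The median distance over all adjacent peaks was 197057 bp.

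**Figure D1:**
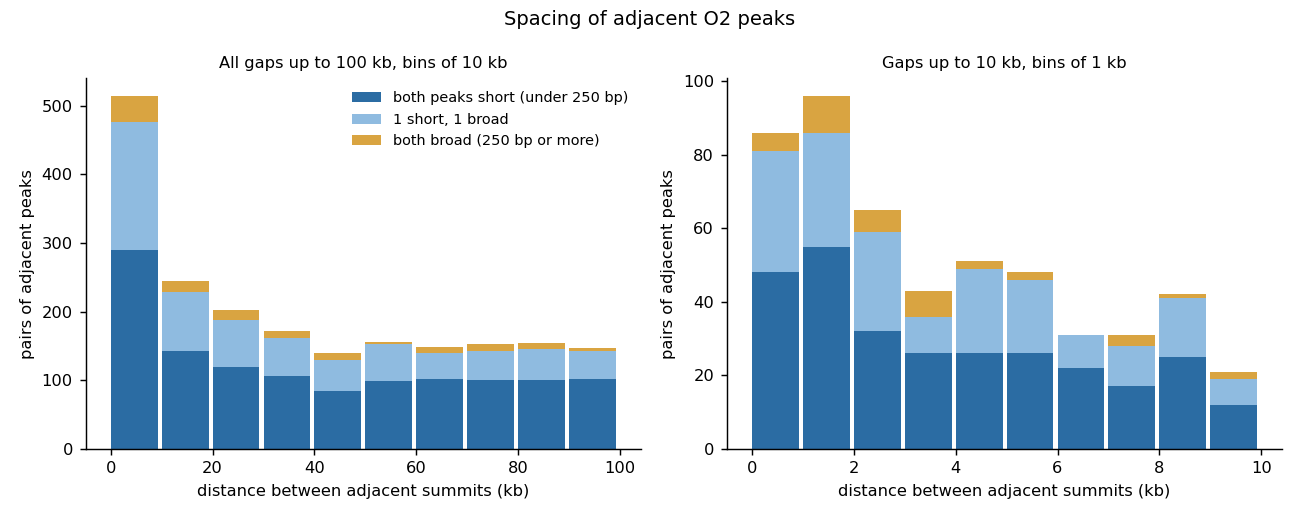
Number of pairs of adjacent peaks (y axis) by the distance between their summits in kb (x axis), in bins of 10 kb up to 100 kb on the left and in bins of 1 kb up to 10 kb on the right, with colours for short and broad peaks. The first bin on the left holds 514 pairs and the second 244, and on the right the bins of 0 to 1 and of 1 to 2 kb hold 86 and 96.

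Within 10000 bp the spacing was itself uneven. The first 1000 bp held 86 pairs of adjacent peaks and the next 1000 bp 96, against 65 from 2000 to 3000 bp and 21 from 9000 to 10000 bp. The 514 close pairs were formed by 2 short peaks in 289 cases, by a short and a broad peak in 187 and by 2 broad peaks in 38. Pairs of 2 short peaks made up 56.2% of the close pairs and 62.4% of all adjacent pairs, and pairs of 2 broad peaks 7.39% and 4.94%. Short peaks had a close neighbour less often than broad ones in this list, at 14.6% against 18.4%. The share was 11.97% for peaks at the shortest length of 160 bp, 14.2% from 161 to 199 bp, 17.1% from 200 to 249 bp, 16.3% from 250 to 299 bp, 17.3% from 300 to 399 bp and 33.6% for the 137 peaks of 400 bp or more. Between 200 and 399 bp it was thus nearly level across the length limit, with lower shares in shorter peaks and a higher one in the longest.

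The clustered short peaks had their nearest summit at a median of 3331 bp, with quartiles of 1429 and 5988 bp and a range from 219 to 10000 bp. Of the 734, 57 lay within 500 bp, 128 within 1000 bp and 485 within 5000 bp. Their nearest peak was another short peak in 557 cases and a broad peak in 177, or 24.1%, where broad peaks made up 21.3% of the list. The isolated short peaks had their nearest summit at a median of 121848 bp.

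At the distance limit, O2_peak_450 and O2_peak_451 on chromosome 1 were the members farthest apart, at 10000 bp, followed by O2_peak_2683 on chromosome 3 at 9983 bp. Just outside lay O2_peak_5209 and O2_peak_5210 on chromosome 7, at 10050 bp, and O2_peak_2366 on chromosome 3 at 10060 bp. Pileups were 21.9, 19.0 and 15.2 for the 3 inside and 23.8, 18.1 and 15.2 for the 3 outside. Fold enrichments were 4.57, 4.0 and 6.98 inside and 4.8, 2.72 and 2.7 outside. Each set of 3 held both peaks of 1 pair. Over wider bands the median folds were near each other. They were 4.51 in members 5000 to 10000 bp from the nearest summit and 4.57 in isolated short peaks at 10000 to 20000 bp. At the length limit, the longest members had 249, 248 and 248 bp, with pileups of 17.1, 33.3 and 20.9. The shortest clustered peaks left out as broad had 250, 250 and 251 bp, with pileups of 37.1, 18.1 and 29.5.

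When peaks were chained as long as each summit lay within 10000 bp of the next, the clustered short peaks fell into 437 clusters. Pairs made up 398 of them, or 91.1%. There were 36 clusters of 3 peaks, 2 of 4 and 1 of 5, and these 39 larger clusters held 84 of the 734 members. Only short peaks were found in 265 clusters, while 172 held at least 1 broad peak. Of the pairs, 252 joined 2 short peaks and 146 a short and a broad one, whereas of the 39 larger clusters 13 held only short peaks and 26 had a broad one. Clusters spanned a median of 3682 bp from first to last summit, and the longest spanned 15962 bp.

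The cluster with the most peaks was on chromosome 5, chr5:18704367-18718728, with 3 short and 2 broad peaks over 14152 bp between its outer summits. Its first short peak, O2_peak_3445, stood alone, 8976 bp before the next. There O2_peak_3446, short, and O2_peak_3447, broad, lay 377 bp apart. After 3603 bp came O2_peak_3448, short, and 1196 bp beyond it O2_peak_3449, broad. The pileups were 16.2, 20.9, 18.1, 22.8 and 25.7 in that order, and the fold enrichments 5.22, 3.65, 3.2, 5.58 and 5.33. No peak of this cluster stood far above the others.

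Clusters of 4 peaks occurred on chromosomes 5 and 7 and were unlike each other in signal. The cluster at chr5:182075104-182081462 had pileups of 68.4, 60.8, 71.3 and 70.3, more than 3 times the 19.0 that is the upper quartile of clustered short peaks, but its fold enrichments were only 1.69, 1.87, 1.72 and 1.74. The cluster at chr7:25338423-25347055 had pileups of 19.0, 13.3, 9.51 and 11.4 with fold enrichments of 4.95, 5.28, 4.52 and 5.34. High pileup and high enrichment thus did not go together in these 8 peaks.

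The narrowest cluster of 3 was at chr8:80299802-80300775, where 2 short peaks lay on either side of a broad one, 377 and 406 bp from it. Their pileups were 14.3, 14.3 and 16.2 and their fold enrichments 6.25, 6.57 and 6.60, so 3 peaks of nearly equal enrichment stood within 783 bp. By contrast, 2 clusters of 3 on chromosome 5 each had 1 short peak between 2 broad ones, of which 1 was more than 2 times as high. At chr5:36522462-36526384 the short peak O2_peak_3515 had a pileup of 39.9 and a fold of 8.90, 498 bp from a broad peak of 44.7 and 8.85 and 2900 bp from a broad peak of 95.1 and 14.2. At chr5:189987441-189991420 the short peak O2_peak_3973 had a pileup of 35.2 and a fold of 8.88, 487 bp from a broad peak of 49.4 and 12.2 and 2999 bp from another of 109 and 12.3. The higher broad peaks of these clusters were 692 and 710 bp long.

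The other named clusters of 3 peaks had pileups near those of the list as a whole, apart from chr4:105934780-105937232, with pileups of 37.1, 43.7 and 28.5 at folds of 3.04, 2.48 and 2.52. The cluster chr4:157929198-157932948 was built of short peaks alone, with pileups of 13.3, 20.9 and 12.4 at folds of 3.58, 6.21 and 4.45. Over chr3:169366357-169369405, chr9:116400687-116404122, chr5:87676686-87680555 and chr2:71973111-71977375, pileups ran from 9.51 to 25.7 and fold enrichments from 2.99 to 5.98. The first cluster by this ranking on each remaining chromosome was chr6:147285905-147290656, chr10:5255688-5260793 and chr1:196499483-196505980, with pileups from 10.5 to 19.96 and folds from 3.34 to 5.51.

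**Figure D2:**
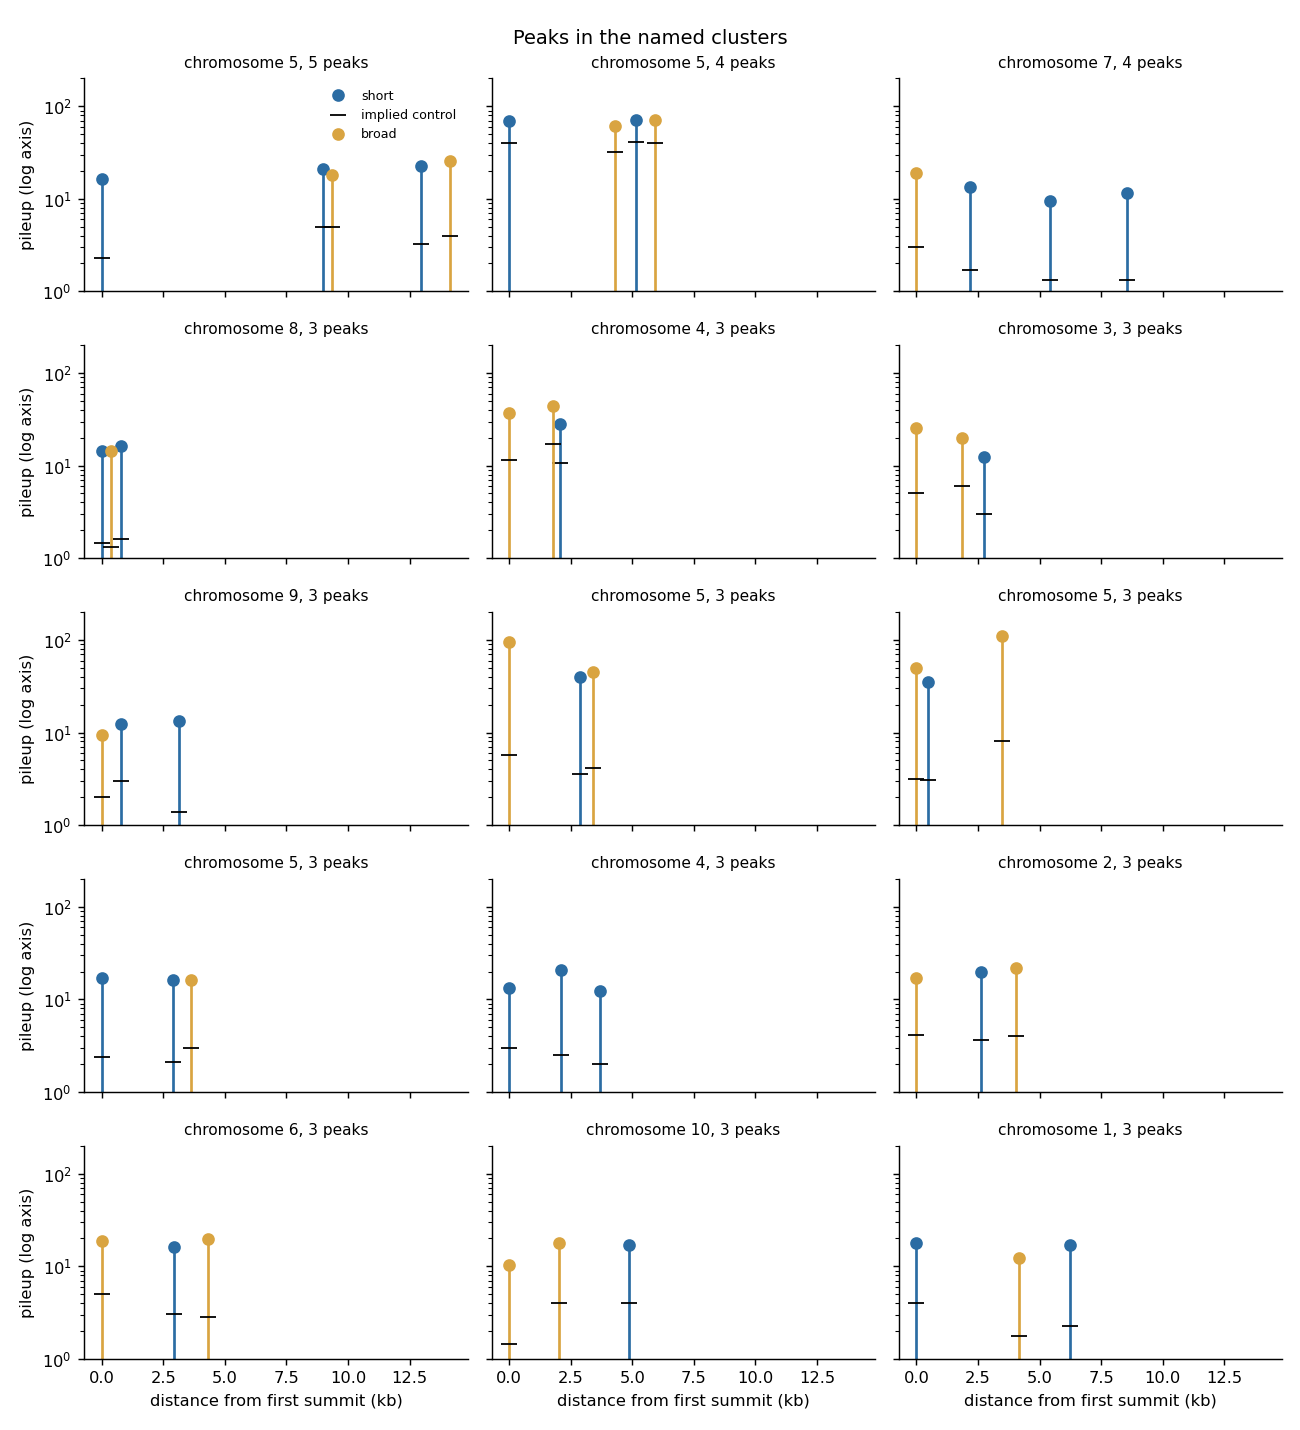
Pileup at the summit (y axis, log scale) against the distance from the first summit in kb (x axis) for the 15 named clusters, with short peaks in blue, broad peaks in gold and the implied control level of each peak as a black dash. The second panel holds the 4 peaks on chromosome 5 with pileups from 60.8 to 71.3 and control levels of 32.0 to 41.0, and the clusters with broad peaks of 95.1 and 109 stand in the panels of the third row.

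The 5 closest pairs of summits were 219 to 326 bp apart, and 3 of them joined 2 short peaks. The closest was on chromosome 8, chr8:172652594-172652769 and chr8:172652932-172653091, with pileups of 17.1 and 28.5 and folds of 3.40 and 3.69. On chromosome 8 too, O2_peak_5654 and O2_peak_5655 lay 315 bp apart with the same pileup of 11.4 and folds of 4.50 and 3.10. On chromosome 5, O2_peak_3464 and O2_peak_3465 were 326 bp apart with pileups of 8.56 and 10.5 and folds of 4.11 and 4.93. The pairs with a broad member were on chromosome 10, 281 bp apart with pileups of 13.3 for the short and 15.2 for the broad peak, and on chromosome 4, 312 bp apart with 28.5 and 43.7. No 2 intervals of the list overlapped. In the 35 pairs with a short peak and summits at most 500 bp apart, the bases between the peaks numbered at least 108, with a median of 204. Of the 57 short summits in these pairs, 35, or 61.4%, lay in the part of their peak that faced the neighbour. In the 4 wider distance classes up to 10000 bp it was 43.97% to 49.6%. A summit that faces its neighbour also shortens the distance that chose the class. This contrast is therefore partly built in and is not a separate result.

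Clustered short peaks had a slightly higher pileup and a slightly lower fold enrichment than isolated ones. The pileups stepped by 0.951, so each stood for a whole number of steps. Clustered short peaks had a median pileup of 16.2, with quartiles of 13.3 and 19.0, and isolated ones a median of 15.2, with quartiles of 13.3 and 18.1. The medians, 17 and 16 steps, were thus 1 step apart, the smallest difference that this scale can show. Median fold enrichment was 4.29 in the clustered and 4.52 in the isolated short peaks, with quartiles of 3.58 and 5.34 against 3.81 and 5.35. The median −log10 q-value was 3.85 and 3.89. These ranges overlapped almost wholly. By chromosome, the median pileup was higher in clustered than in isolated short peaks on 6 chromosomes and equal on 4, and the median fold was lower on 9 of 10, with chromosome 1 as the exception. With a length limit of 200 bp the median pileup was 15.2 in both classes. By position between the first and last peak of a chromosome, the order did not hold throughout. At 20 to 30% from the nearer end the median pileup was lower in clustered short peaks, at 14.3 against 15.2. In the outermost 10% the median folds were alike, at 4.46 in clustered and 4.45 in isolated short peaks. The other stretches kept the order in both measures.

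A control level for each peak can be implied from the pileup and the fold. Whether it belongs to the summit itself or to a wider stretch around it cannot be told from the list. If the stretch was wider, close peaks share part of it. With 1 added to both terms, as MACS2 does, the fold is the pileup plus 1 over the control level plus 1. The levels obtained this way were whole numbers in 49.7% of peaks within a tolerance of 0.01, and 13.4% of peaks shared the lowest level, 1.32. By the series design the comparison chromatin was that of o2, though no source read here says which libraries entered the peak calling as control. The median implied control level was 3.0 in clustered and 2.4 in isolated short peaks, with quartiles of 2.0 and 4.0 against 1.76 and 3.84. It was higher in the clustered ones on all 10 chromosomes.

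High control levels were more frequent among clustered than among isolated peaks, short and broad. A level of 10 or more, a limit chosen after the values were seen, was found in 46 of 734 clustered short peaks, or 6.27%, and in 129 of 4277 isolated ones, or 3.02%, where it was found in 4.02% of all peaks. Broad peaks showed the same order, with 23 clustered ones, or 9.24%, and 58 of 1105 isolated ones, or 5.25%. These are counts of peaks and not of separate places. In 10 pairs of 2 short peaks both had such a level, so some clusters were counted more than once. The share of short peaks that were clustered went up with the control level. It was 12.2% of the short peaks with a level under 2, 13.2% from 2 to under 3, 15.5% from 3 to under 5, 18.4% from 5 to under 10, 20.3% from 10 to under 20 and 29.4% of the 102 peaks at 20 or more. At the lowest level it was 10.9% of 722 peaks. Among isolated short peaks, the share with a level of 10 or more was 4.98% with the nearest summit 10000 to 20000 bp away. It was 5.62% to 50000 bp, 3.98% to 100000 bp and 1.70% beyond. Among clustered short peaks, that share was 8.77% within 500 bp, 12.7% to 1000 bp and 5.67% to 2000 bp. From 2000 to 5000 bp it was 6.94%, and from 5000 to 10000 bp 3.61%. The share thus did not drop at the limit of 10000 bp. High control levels were thus least frequent in the short peaks farthest from any other.

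**Figure D3:**
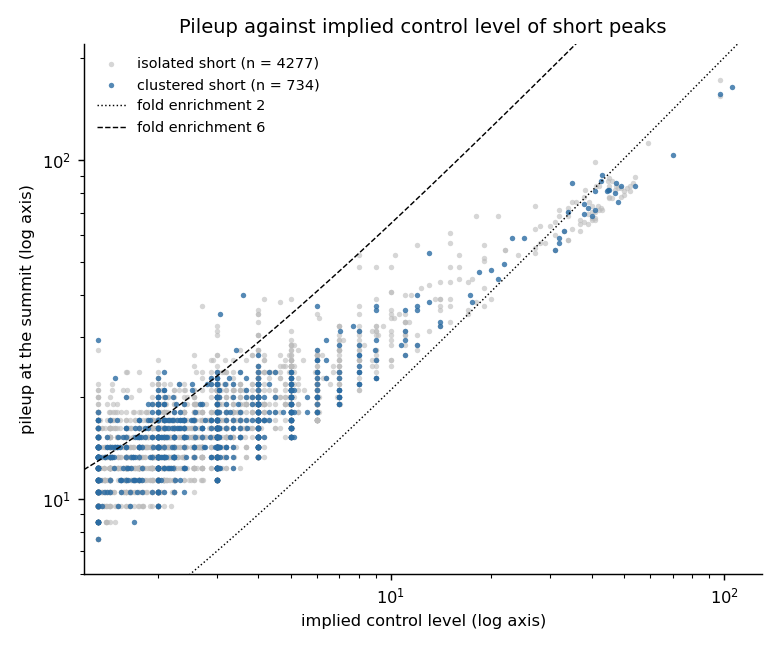
Pileup at the summit (y axis, log scale) against the implied control level (x axis, log scale) for clustered short peaks in blue and isolated short peaks in grey, with lines at a fold enrichment of 2 and of 6. Both classes cover the same field. At control levels of 20 or more, where 30 of 102 peaks are clustered, the median folds lie below the line of fold 2, at 1.81 in clustered and 1.77 in isolated short peaks.

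The difference in control level was found outside the strongest peaks. When the list was first limited to the peaks above its median −log10 q-value, 194 short peaks were clustered, and the median control level was 2.02 in them and 2.0 in the isolated ones. The median fold then turned round, to 5.53 in clustered and 5.35 in isolated short peaks. With all peaks kept as neighbours, the short peaks above the upper quartile of −log10 q-values, from 5.13 upward, had median control levels of 2.0 in both classes and median pileups of 17.1 in both. In those up to the lower quartile, at most 2.8, the control levels were 4.0 in clustered and 3.0 in isolated peaks and the pileups 14.3 and 13.3. Between the median and the upper quartile the control levels were 2.43 and 2.08. The clustered share was alike at both ends, at 15.1% up to the lower and 15.8% above the upper quartile, and was 12.3% between the median and the upper quartile. Since the q-value is computed from pileup and control level, these strata are not independent of either.

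The 5 clustered short peaks of highest pileup all had control levels of 42.7 or more and folds of 2.08 or less. On chromosome 4, O2_peak_3313 (chr4:225688052-225688231) had a pileup of 164, a control level of 105 and a fold of 1.56. Its neighbour 659 bp away, O2_peak_3312 (chr4:225687411-225687593), had 157, 97.0 and 1.61. An isolated short peak, O2_peak_3311 (chr4:225627199-225627380), 60239 bp before that pair, had 155, 97.0 and 1.59, so 3 of the 4 highest pileups of the list stood in 1 stretch of chromosome 4. On chromosome 9, O2_peak_6030 had a pileup of 104 at a control level of 70.0 and a fold of 1.47, the lowest fold of all clustered short peaks, 897 bp from O2_peak_6029 with 83.7, 54.0 and 1.54. O2_peak_4985 on chromosome 7 and O2_peak_1007 on chromosome 10 had pileups of 90.3 and 86.5 with folds of 2.08 and 2.00.

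Isolated short peaks reached the same heights, with the same low folds. The highest was O2_peak_5733 on chromosome 8, with a pileup of 172 at a control level of 97.0 and a fold of 1.77. After O2_peak_3311 came O2_peak_2008 on chromosome 2, O2_peak_4218 on chromosome 6 and O2_peak_1645 on chromosome 2, with pileups of 112, 98.9 and 89.4 and folds of 1.89, 2.38 and 1.64. Of the 20 short peaks of highest pileup 8 were clustered, and of the 100 highest 27, where 14.6% of all short peaks were. These are again counts of peaks and not of places, since both peaks of a pair can be among them, as O2_peak_3312 and O2_peak_3313 were.

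The highest fold enrichments were a different set of peaks. A fold of 6 or more, a limit also chosen after the values were seen, was found in 99 clustered short peaks, or 13.5%, and in 544 isolated ones, or 12.7%, against 13.3% of all peaks. The clustered share among short peaks of that fold was 15.4%, near the 14.6% of all short peaks, and it was 21.0% among those with a fold under 3. The strongest clustered short peak was O2_peak_3306 on chromosome 4, chr4:224109133-224109343, with a fold of 13.1, a pileup of 29.5 and a −log10 q-value of 23.9 at a control level of 1.32. Its neighbour 377 bp away, O2_peak_3305, also short, had a fold of 5.75 and a pileup of 12.4. Next came O2_peak_4795 on chromosome 7 (chr7:26190483-26190721), with a fold of 9.57 and its neighbour 7048 bp away, and the 2 short peaks of chromosome 5 in clusters with 2 broad ones described above. The fifth, O2_peak_2742 on chromosome 4 (chr4:5140925-5141126), had a fold of 8.21, 4060 bp from a broad peak of 7.61. Of these 5, 4 had a broad peak as nearest neighbour, as did 24.1% of all members. Over all members, a fold of 6 or more was about as frequent beside a broad as beside a short peak, at 13.6% and 13.5%. Of the 20 short peaks of highest fold 4 were clustered, and of the 100 highest 13.

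**Figure D4:**
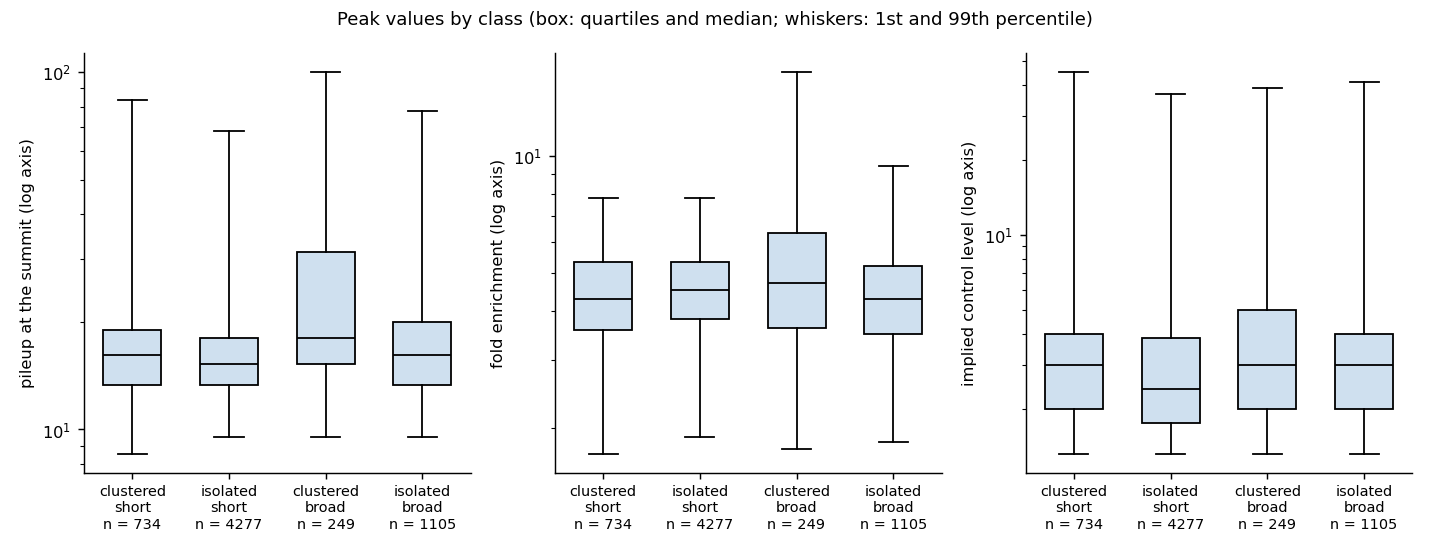
Pileup, fold enrichment and implied control level (y axes, log scale) in clustered and isolated short and broad peaks, with boxes for the quartiles and median and whiskers for the 1st and 99th percentile. The boxes of clustered and isolated short peaks nearly coincide, at median pileups of 16.2 and 15.2, whereas clustered broad peaks reach an upper quartile of 31.4.

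Over all clustered short peaks, the median fold rose with the distance of the nearest summit, and the median pileup did not rise. Median folds were 4.01 within 500 bp, 4.10 from there to 1000 bp, 4.19 to 2000 bp, 4.29 to 5000 bp and 4.51 to 10000 bp. Median pileups in the same order were 17.1, 16.2, 16.2, 16.2 and 15.2. Beside a broad peak alone the median folds took no steady course, at 5.42, 4.10, 4.48, 4.19 and 4.53. In the 13 short peaks with a broad nearest peak within 500 bp, the median pileup was 20.9 and the median fold 5.42, and 5 of them had a fold of 6 or more, which 13.3% of all peaks had. In the 44 with a short nearest peak within 500 bp, the medians were 17.1 and 3.73, and 6 had a fold of 6 or more. From 500 to 1000 bp the median pileup was 16.2 beside either kind, the median folds were 4.10 beside a broad and 4.08 beside a short peak, and 0 of 19 and 5 of 52 had a fold of 6 or more. From 1000 to 2000 bp, 6 of 31 beside a broad and 8 of 110 beside a short peak did. From 5000 to 10000 bp the median pileup was 15.2 beside a short and 15.2 beside a broad peak, and the median folds were 4.49 and 4.53. The 13 peaks are few, and O2_peak_3515 and O2_peak_3973 are among them.

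Short peaks with a broad partner were not regularly the weaker of the pair. In the 146 pairs of 1 short and 1 broad peak, the broad peak had the higher pileup in 77, the short one in 58, and both had the same in 11. The fold was higher in the broad peak in 72 pairs and in the short peak in 71. The median pileups were 18.1 and 16.2 and the median folds 4.48 and 4.38. Within the 252 pairs of 2 short peaks, the pileups differed by a median of 2.5 steps, were the same in 27 pairs and lay within 2 steps in 126.

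Of the 252 pairs of 2 short peaks, 10 had a control level of 10 or more, found in 4.02% of all peaks, in both peaks and 5 in only 1. A fold of 6 or more, found in 13.3% of all peaks, was present in both peaks of 9 pairs and in 1 peak only of 48 pairs. Among short peaks in clusters of 3 or more, 9 of 84, or 10.7%, had a control level of 10 or more, against 37 of 650, or 5.69%, in pairs. These 9 stood in 5 of the 39 larger clusters, 3 of them in chr2:98310282-98320117, 2 in chr5:182075104-182081462 and 2 in chr9:76177-90465, so few clusters carried this share.

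Clustered short peaks were found on all 10 chromosomes. Chromosome 1 held the most, 97 of 734 or 13.2%, and 14.9% of the isolated short peaks. Chromosome 6 held the fewest, 57, and 8.70% of the isolated ones. The share of short peaks that were clustered was highest on chromosomes 10 and 9, at 17.1% and 17.0%, and lowest on chromosome 4, at 11.9%. Per Mb of the stretch between the outermost peaks, clustered short peaks numbered from 0.249 on chromosome 4 to 0.465 on chromosome 7, while isolated ones numbered from 1.85 on chromosome 4 to 2.40 on chromosome 7. The chromosomes at both ends were thus the same for clustered and for isolated peaks, with a wider spread among the clustered. Chromosome 7 held 10 of the 39 clusters of 3 or more peaks, chromosome 6 held 6 and chromosome 5 held 5. The nearest summit of clustered short peaks was at a median of 1834 bp on chromosome 5 and 5052 bp on chromosome 2, the extremes among the chromosomes.

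**Figure D5:**
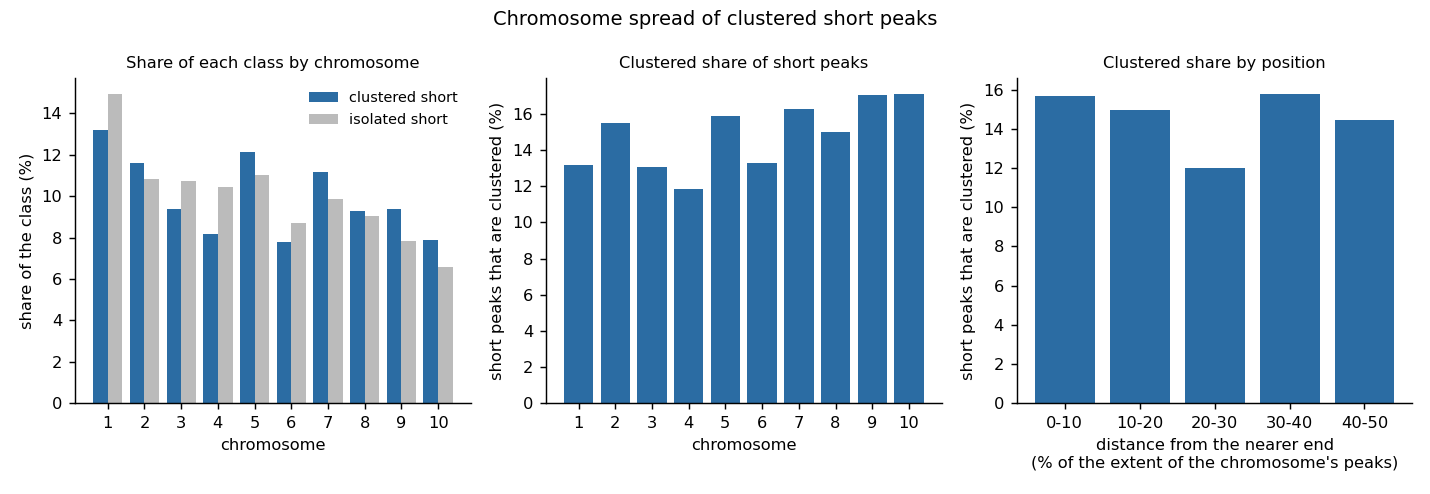
Share of all clustered and of all isolated short peaks on each chromosome in percent (left), the percent of each chromosome's short peaks that are clustered (middle) and the same percent by distance from the nearer end (right). The middle bars run from 11.9% on chromosome 4 to 17.1% on chromosome 10, and the right bars from 12.01% to 15.8% with no steady course from end to middle.

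Along the chromosomes, clustered short peaks followed the isolated ones. Positions were taken relative to the stretch between the first and last peak of each chromosome. The outermost 10% at either end, together, held 27.9% of the clustered and 25.8% of the isolated short peaks, and the middle, from 40 to 50% of the stretch from either end, 15.4% and 15.7%. The share of short peaks that were clustered was 15.7%, 14.9%, 12.01%, 15.8% and 14.4% from the ends to the middle. Neighbouring clusters lay a median of 2.81 Mb apart, and 102 of 427 such gaps were under 1 Mb and 15 under 0.1 Mb. The largest gap between clusters was 42.4 Mb.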

How the data were processed

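Per the labels' protocols, ChIP and polyadenylated RNA of dissected endosperm were sequenced. Per the submitters' processing notes the build was B73 RefGen_v3, and MACS2 2.1.0.20140616, Bowtie2 2.1.0, bedtools 2.17.0, TopHat2 2.0.9, edgeR 3.2.4 and Trimmomatic were among the tools, listed with no role. The authors deposited read counts per library by mapping class, RPKM per gene, and 1 peak list. Per the file headers the peak list holds the fold enrichment, a ratio, the pileup, a signal, and the −log10 of the q-value for each peak, beside its length and summit. All peak values are the authors' own. No source read states whether replicates were pooled or duplicate fragments removed, or which threshold was set. The pileup step of 0.951 differed from the ratio of uniquely mapped reads of o2 to WT, 0.813.

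Distances, clusters and quantiles were computed with Python 3.11.15, numpy 2.4.6 and pandas 2.3.3 after the grouping step was tested on simulated data. Start and end are 1-based. No test was run over peaks, and the RPKM values served only to check the labels. Named regions are the first 12 clusters by number of peaks, then smaller span, the first of each chromosome, the 5 closest pairs, the 5 peaks of highest pileup and of highest fold, and the 3 peaks on either side of each limit. Members, limits and lists were chosen with earlier results of these data known. A genome or annotation of this build was not used here, and so no peak was assigned to a gene and no sequence was read. Alternatives were other distances, length limits, neighbours, a stricter q-value, edge gaps, merged intervals and placed chromosomes.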

Additional observations from a re-analysis of the deposited data

How the results depend on the processing

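The numbers follow the limits by construction. With a maximum distance of 5000 bp, 485 short peaks were clustered (9.68% of short peaks, median nearest summit 1824 bp), and with 20000 bp 21.1% were (5695 bp). Under a length limit of 200 bp there were 459 (13.5%, with 16.6% of them on chromosome 1), and the median pileup difference of 0.95 was 0, which lies within the interval stated below. With only short peaks as neighbours 11.5% were clustered, in 281 clusters. Above the median −log10 q-value of the list 194 were (7.80%, in 125 clusters, with 19.1% on chromosome 1), and the median fold difference between clustered and isolated short peaks turned from -0.23 to 0.18. The cause was not tested. The median control level difference, 0.60, was 0.64 and 0.44 with length limits of 200 and 300 bp and 0.024 above the median −log10 q-value, where the difference in the share with a control level of 10 or more was 0.093 percentage points, against 3.25 in the whole list. Without short peaks within 1000 bp of another summit, an alternative chosen after seeing the data, 12.4% were clustered, with a median nearest summit of 4161 bp. The other 77 of 98 alternative values lay within 1.5 times a count as reported, or within the 95% binomial interval of a share or median. These intervals count each peak as an independent draw, which peaks of 1 list are not. For a difference, only the clustered side was given an interval. They served as a yardstick for the size of a change and do not measure replicate error. Among the 77 were the values with edge gaps, with merged intervals, which changed nothing as no intervals overlap, and with placed chromosomes, which hold all peaks. Without peaks of a control level of 10 or more, also chosen after seeing the data, the median pileups were equal, at 15.2, and the median control levels were 2.88 in clustered and 2.37 in isolated short peaks. The median fold difference was then -0.075. It was -0.071 with a maximum distance of 20000 bp and -0.084 under a length limit of 200 bp, against -0.33 with 5000 bp. No paired analysis was possible because the peak list holds no value per library, and for the same reason no replicate could be left out. Pileups of 13.3 to 19.0, the quartiles of clustered short peaks, stand for 14 to 20 steps, which limits how finely single peaks can be told apart.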
